A study of Mus musculus with 12 samples.

Results

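In the livers of 12 mice, 43 complement and coagulation genes were followed. They were the rows of the deposited gene table whose mouse symbol was on a list of complement components, clotting factors and their inhibitors. The list was chosen with earlier results of these data known. It gave 43 of 28036 genes in all, of which 22 belong to complement and 21 to coagulation and fibrinolysis. All 43 were found and all 43 passed the filter on low counts, with at least 64 counts in every library. The study asked how Eleutheroside E, a plant lignan glycoside, acts on the liver of mice with diet-induced MASH, the inflamed form of metabolic fatty liver disease. All mice were C57BL/6J, an inbred laboratory strain, and the experiment ran for 12 weeks with 3 livers in each of 4 groups. EE mice ate a high-fat diet to induce MASH and after 8 weeks were given Eleutheroside E by mouth at 100 mg/kg for 4 weeks. Resmetirom mice had the same diet and were given resmetirom, which activates thyroid hormone receptor beta, at 3 mg/kg for the same 4 weeks. MASH mice had the diet and received 0.5% CMC-Na as vehicle, and control mice ate normal chow and received the same vehicle. The labels give no age or sex, and do not state whether the treated mice received the vehicle.

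Complement is a cascade of blood proteins that marks and lyses microbes and damaged cells. It starts through C1q, through mannose-binding lectins or spontaneously, converges on the cleavage of C3, and ends in a pore made of C5b to C9. Coagulation is a parallel cascade of serine proteases that ends in thrombin, which cuts fibrinogen into fibrin, and plasmin later dissolves the clot. Hepatocytes secrete most of these proteins into the blood, while C1q and properdin come mainly from macrophages and other myeloid cells.

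The libraries held 17297864 to 21793311 counts each, and the filter left 13988 genes for the tests. Levels are in CPM, counts scaled to library size and by the trimmed mean of M values, and means carry the SD over n = 3 livers. Fold changes are on the log2 scale and carry their SE. A member was called where the adjusted p (Benjamini-Hochberg over all 13988 genes) of edgeR's quasi-likelihood test was below 0.05. A few libraries stood apart from their groups. In control 1, mitochondrial transcripts made up 35.4% of counts, against 2.40% to 4.38% in the other 11 libraries. In resmetirom 2, major urinary protein transcripts made up 35.7%, against 3.33% to 15.99% in the other 11. Resmetirom 1 had the highest summed Kupffer cell markers, at 599.6 CPM, and control 1 the lowest, at 46.9 CPM. The median member had a coefficient of variation of 7.56% between EE livers and 7.89% between MASH livers, but 28.3% between resmetirom livers and 27.7% between control livers. These are bulk samples, in which fewer cells of a type and less RNA per cell cannot be told apart.

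The members covered a wide range of levels. Per kilobase of transcript and averaged over the 4 groups, the most abundant was Vtn (vitronectin, which blocks the terminal complex), at 1335 CPM per kb. Fgg and Fga, 2 of the 3 fibrinogen chains, followed at 1235 and 1126 CPM per kb, and C3, the central complement protein, stood at 866 CPM per kb. The lowest were Cfp (properdin, which stabilises the alternative pathway convertase) at 13.3 and Pros1 (protein S, a cofactor of activated protein C) at 11.7 CPM per kb. Together the members summed to between 39533 and 46505 CPM in EE livers, 26018 and 36917 CPM in resmetirom livers, 26922 and 28657 CPM in MASH livers, and 30079 and 34582 CPM in control livers. The summed level was thus higher in all 3 EE livers than in the other 9. The EE group had the highest mean of the 4 groups for 29 members and the lowest for 0, while the MASH group had the lowest mean for 22 and the highest for 0. The order of group means was not counted over all tested genes, so these counts have no share to set beside them.

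**Figure D1:**
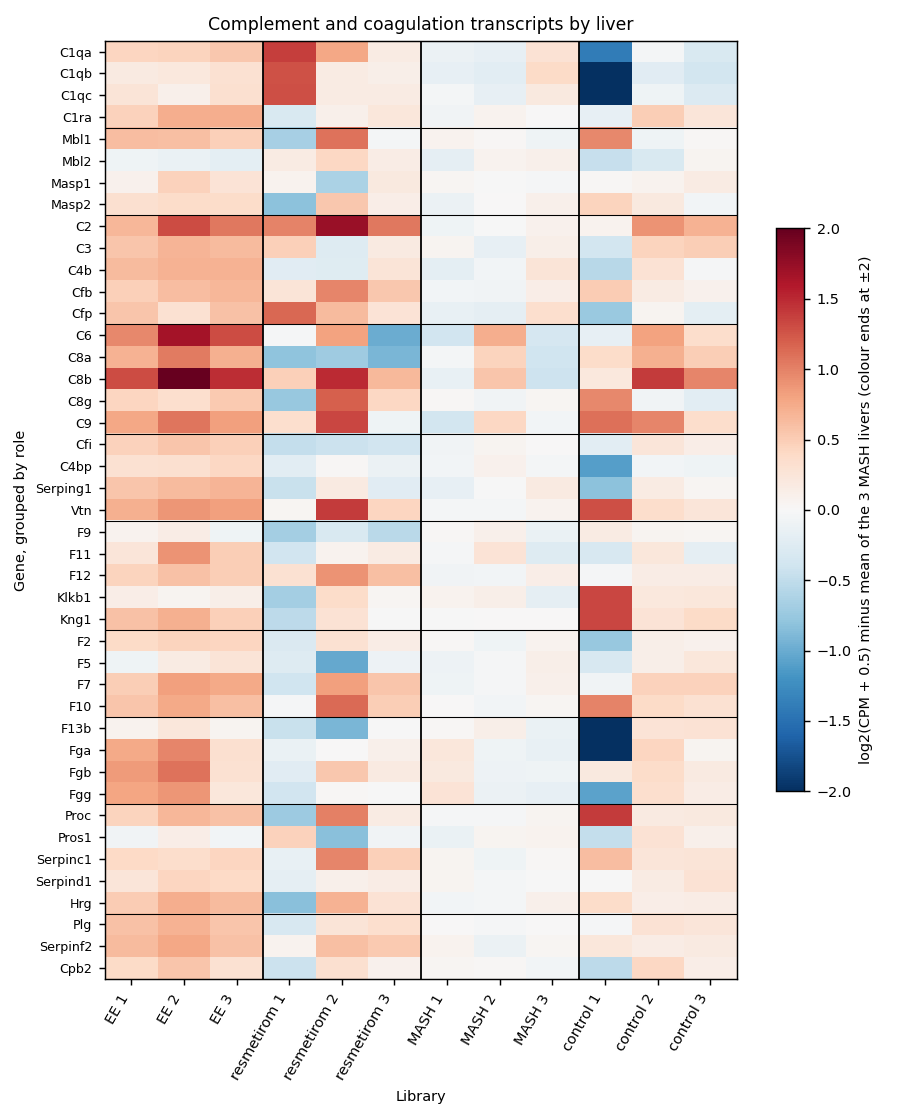
Level of each of the 43 members (rows, grouped by role) in each of the 12 libraries (columns), as log2(CPM + 0.5) minus the mean of the 3 MASH livers, with red above and blue below that mean and the colour ending at a difference of 2. The EE columns are red for nearly all members, resmetirom 1 and 2 differ from each other within their group, and control 1 stands apart in both directions.

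The comparison of EE with MASH asks what Eleutheroside E changed in the diet model. Of 43 members, 42 had a log2 fold change above 0, with a median of 0.57, while 47.6% of all tested genes were above 0 and their median was -0.02. The exception was Mbl2, a mannose-binding lectin, at -0.14 ± 0.20. All 3 EE livers lay above all 3 MASH livers for 32 members, 74.4% of them, against 16.7% of all tested genes, and the reverse held for 0 members, against 15.5% of all tested genes. No single member passed the test: edgeR's quasi-likelihood test called 0 members in the fit of all 12 libraries, in which 0.00715% of all genes were called. At an unadjusted p below 0.05, 17 members were higher and 0 lower, against 2.34% and 5.15% of all genes. DESeq2 called 2 members (C8b and Serpinf2) and 0.200% of all genes, and limma voom 0 members, with 18 members and 7.70% of all genes at an unadjusted p below 0.05. The count of 17, where 7.49% of all genes passed in either direction, became 6 without MASH 1 (3.71% of all genes), 9 without MASH 2 (4.65%) and 10 without MASH 3 (6.13%). Without EE 2 and without EE 3 it was 5 (3.51% of all genes) and 9 (4.09%). 

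The number of members called differed between fits. In a fit of the EE and MASH livers alone, which tested 13248 genes with 4 residual degrees of freedom, 22 members were called, all higher, where 5.63% of all genes were called. With the replicate number as a block in that fit, which left 2 residual degrees of freedom, 34 were called, all higher, where 20.7% of all genes were called. The 9 not called there were C1qb, C1qc, F13b, F5, F9, Klkb1, Masp1, Mbl2 and Pros1. With the block in the fit of all 12 libraries, 0 members and 0.0357% of all genes were called, with 16 members and 8.14% of all genes at an unadjusted p below 0.05. Without control 1 and resmetirom 2, 2 members were called, C2 and C8b, and 0.472% of all genes.

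**Figure D2:**
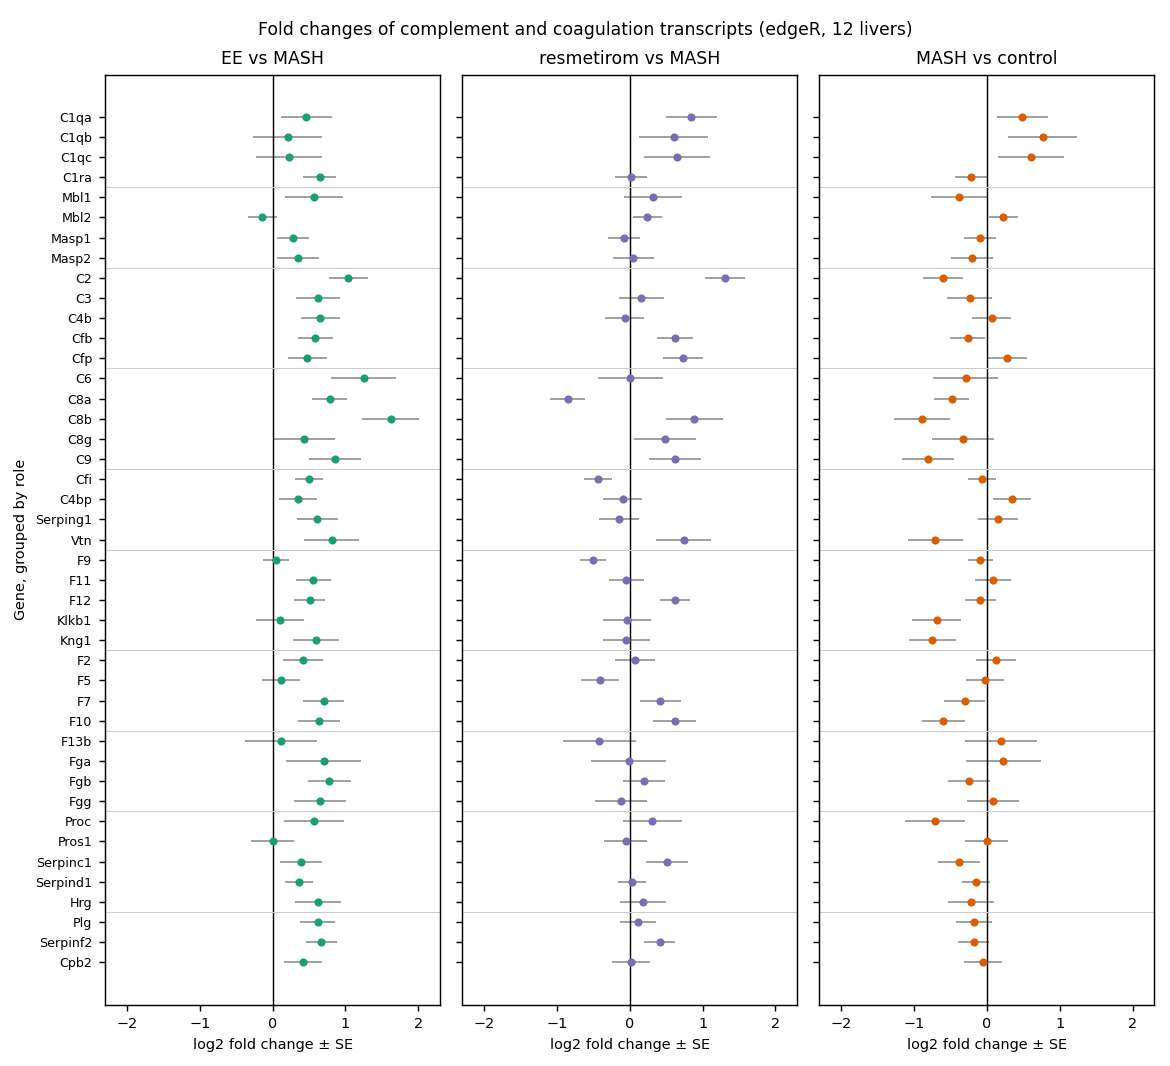
The log2 fold change of each member (points) with its SE (bars) from edgeR's fit of all 12 libraries, for EE against MASH, resmetirom against MASH and MASH against control, with genes grouped by role from C1q at the top to fibrinolysis at the bottom. In EE against MASH 42 of 43 points lie above 0, while resmetirom against MASH has 28 above and 15 below 0, and MASH against control 13 above and 30 below.

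The terminal components, which build the pore, had the highest median of the 10 role groups in EE against MASH, at 0.86, and for all 5 of them the EE livers lay above the MASH livers. C8b, which encodes the beta chain of the eighth component, had the smallest p of the members in this comparison. It stood at 294, 513 and 331 CPM in EE livers, 165, 333 and 185 CPM in resmetirom livers, 107, 175 and 88.4 CPM in MASH livers, and 137, 314 and 233 CPM in control livers. The EE livers lay above every MASH liver, and replicate 2 was the highest of each group. The log2 fold change of EE against MASH was 1.62 ± 0.40 (edgeR's quasi-likelihood test, adjusted p = 0.582). In the fit of those groups alone the adjusted p of C8b was 0.0468, and 0.00028 with the replicate block.

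C8a encodes the alpha chain of the same component and lies near C8b on chromosome 4. It stood at 579.5, 734 and 581 CPM in EE livers, 204, 217 and 189 CPM in resmetirom livers, 346, 484 and 269.5 CPM in MASH livers, and 457, 579.9 and 499 CPM in control livers. The 3 resmetirom livers were below all 9 others, and the EE livers were above every MASH liver but overlapped the control livers by a narrow margin. C6, the component that joins C5b first, stood at 295, 483 and 377 CPM in EE livers, 149, 265 and 75.8 CPM in resmetirom livers, 116, 251 and 119.8 CPM in MASH livers, and 136, 265 and 194 CPM in control livers. Each EE liver was above all 9 other livers. C9, which polymerises into the pore wall, stood at 436, 537 and 449.9 CPM in EE livers, 321, 648 and 242 CPM in resmetirom livers, 198, 342 and 246 CPM in MASH livers, and 548, 502 and 327 CPM in control livers. Its EE and control livers overlapped, and its MASH livers lay below the EE livers. The remaining member of this group, C8g (the gamma chain), had a log2 fold change of 0.43 ± 0.42 in EE against MASH. Those of C8a, C6 and C9 were 0.79 ± 0.24, 1.25 ± 0.45 and 0.86 ± 0.36. Their adjusted p values were 0.595, 0.61 and 0.634 (edgeR's quasi-likelihood test).

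The promoters of C8a and C8b, neighbours with fold changes of opposite sign in resmetirom against MASH, and of the fibrinogen genes Fga and Fgb are shown because they hold the one of 7 motifs whose share among the members was highest relative to all genes. They were chosen after that share was seen. RefSeq promoters of build GRCm38.p6, here the 250 bases before each start, matched 33 of the 43 members. The half-site GTTAAT of the liver factor HNF1, or ATTAAC on the other strand, occurred in 9 of 33 members (27.3%), against 7.49% of 27025 genes. The others were C1ra, C4bp, Cfp, F13b and Vtn. The 4 sequences are given 5′ to 3′ on the strand of the gene, with the match in capitals. C8a is at chr4:104876399-104876648 (minus strand), C8b at chr4:104766067-104766316 (plus strand), Fga at chr3:83025903-83026152 (plus strand) and Fgb at chr3:83049864-83050113 (minus strand).
C8a promoter: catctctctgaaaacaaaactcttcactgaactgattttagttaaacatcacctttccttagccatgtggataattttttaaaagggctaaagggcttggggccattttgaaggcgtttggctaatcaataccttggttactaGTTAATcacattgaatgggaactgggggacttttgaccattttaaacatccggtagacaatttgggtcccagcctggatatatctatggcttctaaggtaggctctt
C8b promoter: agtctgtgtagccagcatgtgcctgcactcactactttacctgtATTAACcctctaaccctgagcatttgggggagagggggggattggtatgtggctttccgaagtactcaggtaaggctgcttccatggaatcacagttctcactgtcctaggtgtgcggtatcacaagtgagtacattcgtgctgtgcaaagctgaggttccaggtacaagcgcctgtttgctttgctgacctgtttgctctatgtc
Fga promoter: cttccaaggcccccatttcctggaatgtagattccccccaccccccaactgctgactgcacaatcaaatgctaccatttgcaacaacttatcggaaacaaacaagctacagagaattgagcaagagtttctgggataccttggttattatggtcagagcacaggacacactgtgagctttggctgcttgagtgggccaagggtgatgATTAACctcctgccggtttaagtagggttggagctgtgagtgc
Fgb promoter: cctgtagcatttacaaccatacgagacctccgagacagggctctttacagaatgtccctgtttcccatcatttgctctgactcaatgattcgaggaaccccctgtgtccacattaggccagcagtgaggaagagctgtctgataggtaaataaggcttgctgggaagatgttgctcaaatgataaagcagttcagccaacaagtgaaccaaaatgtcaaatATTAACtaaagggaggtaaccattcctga
The match starts 107 bases before the start of C8a, 206 before that of C8b, 43 before that of Fga and 29 before that of Fgb. Of the 6 other motifs searched on both strands, the C/EBP motif TTGCNNAA was in 24.2% of the 33 members and 10.8% of all genes, and the nuclear receptor half-site AGGTCA in 33.3% and 15.8%. The interleukin-6 response element CTGGGAA was in 15.2% and 10.4%, the HNF4 half-site CAAAGT in 18.2% and 14.1%, and the FOXA motif TGTTTNC in 33.3% and 19.9%. The NF-kappa B motif was in 0 of the 33 and in 0.414% of all genes. No motif contains another, and a match is a description, not a binding site. The shares of all genes were taken over every gene with a RefSeq promoter, whether or not it was tested in liver. They do not compare the members with other liver genes.

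Among the convertase parts, which make the enzymes that cleave C3 and C5, the median in EE against MASH was 0.62 and the EE livers lay above the MASH livers for 4 of 5. Cfb, the protease of the alternative pathway convertase, was at 0.59 ± 0.24 and Cfp at 0.48 ± 0.27. C2, the protease of the classical pathway convertase, stood at 91.6, 142 and 120.3 CPM in EE livers, 115, 192 and 120.0 CPM in resmetirom livers, 54.2, 57.1 and 61.1 CPM in MASH livers, and 60.2, 107 and 93.3 CPM in control livers. All 6 treated livers were above all 3 MASH livers, and control 1 was within the MASH range. The log2 fold change of EE against MASH was 1.04 ± 0.27 (edgeR's quasi-likelihood test, adjusted p = 0.582). In the fit of those groups alone the adjusted p of C2 was 0.0226, and 0.00296 with the replicate block. C3 itself stood at 5391, 5896 and 5689 CPM in EE livers, 5123, 3074 and 4143 CPM in resmetirom livers, 3808, 3269 and 3954 CPM in MASH livers, and 2839, 5005 and 5161 CPM in control livers. Each EE liver was above all 9 others, with a log2 fold change against MASH of 0.62 ± 0.31 that did not pass the test. C4b, the partner of C2, averaged 1794 ± 42.7 CPM in EE livers, 1085 ± 224 CPM in resmetirom livers, 1138 ± 189.8 CPM in MASH livers and 1085 ± 307 CPM in control livers. C4b has a near-identical copy, C4a, so the way the reads were shared out between them is uncertain.

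The inhibitors of complement had a median of 0.56, and the EE livers lay above the MASH livers for all 4 (Cfi, C4bp, Serping1 and Vtn). Cfi, the protease that cuts C3b and C4b, stood at 593, 631 and 596 CPM in EE livers, 309.6, 317 and 329 CPM in resmetirom livers, 409.5, 446 and 433 CPM in MASH livers, and 369, 506 and 472 CPM in control livers. Neither the EE nor the resmetirom livers overlapped any other group: the EE livers were the highest of the 12 and the resmetirom livers the lowest. C4bp, which binds C4b, had a log2 fold change of 0.34 ± 0.26 in EE against MASH and Vtn of 0.81 ± 0.38. Serping1, the C1 inhibitor, averaged 884 ± 41.2 CPM in EE livers and 577 ± 68.5 CPM in MASH livers.

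In the lectin arm and the C1 complex the differences between EE and MASH were smaller, with medians of 0.32 and 0.34. The lectin Mbl1 had a log2 fold change of 0.57 ± 0.39, and the proteases Masp1 and Masp2 of 0.29 ± 0.22 and 0.35 ± 0.29. C1ra, a protease of C1 with a close copy (C1rb) that makes its count uncertain, stood at 0.64 ± 0.22. The 3 C1q chains were between 0.21 and 0.46.

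Among clotting factors, F2 (prothrombin) stood at 1721, 1794 and 1775 CPM in EE livers, 1074, 1634 and 1464 CPM in resmetirom livers, 1335, 1236 and 1380.5 CPM in MASH livers, and 778, 1433 and 1402 CPM in control livers. Every EE liver was above every other liver, and the log2 fold change against MASH was 0.42 ± 0.28. The extrinsic factor F7 was at 0.70 ± 0.28 and F10, where both arms of coagulation meet, at 0.64 ± 0.29, while the cofactor F5 was at 0.11 ± 0.26. In the contact and intrinsic group the median was 0.51. F11, F12 and Kng1 were at 0.56 ± 0.24, 0.51 ± 0.21 and 0.59 ± 0.32, but F9 (the factor missing in haemophilia B) was at 0.05 ± 0.18 and Klkb1 (plasma prekallikrein) at 0.10 ± 0.33.

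The fibrinogen genes were higher on average in EE livers, with more spread than most members. Fgb, the beta chain, stood at 4291, 5082 and 2949 CPM in EE livers, 2044, 3474 and 2697 CPM in resmetirom livers, 2727, 2209.9 and 2243 CPM in MASH livers, and 2738, 3078 and 2706 CPM in control livers. The lowest EE liver was just above the highest MASH liver and within the resmetirom and control ranges. The log2 fold changes of EE against MASH were 0.78 ± 0.29 for Fgb, 0.70 ± 0.52 for Fga and 0.65 ± 0.36 for Fgg, and EE 3 was the lowest of the EE livers for each. F13b, the carrier subunit of the fibrin cross-linking factor, was at 0.11 ± 0.50.

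Anticoagulant and fibrinolytic genes lay on the same side of MASH. Antithrombin (Serpinc1) was at 0.39 ± 0.29, heparin cofactor II (Serpind1) at 0.36 ± 0.19, protein C (Proc) at 0.57 ± 0.41 and the histidine-rich glycoprotein Hrg at 0.63 ± 0.32, while protein S (Pros1) was at 0.00 ± 0.29. Plasminogen (Plg) was at 0.62 ± 0.25, its inhibitor antiplasmin (Serpinf2) at 0.66 ± 0.21 and the carboxypeptidase Cpb2 (which protects fibrin) at 0.42 ± 0.26. The median in EE against MASH was 0.58 over the 22 complement members and 0.56 over the 21 coagulation members.

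For 8 members all 3 EE livers lay above each of the other 9 livers, 18.6% of the members against 1.29% of all tested genes. They were C3, C4b, C6, Cfi, C4bp, Serping1, F2 and Plg.

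**Figure D3:**
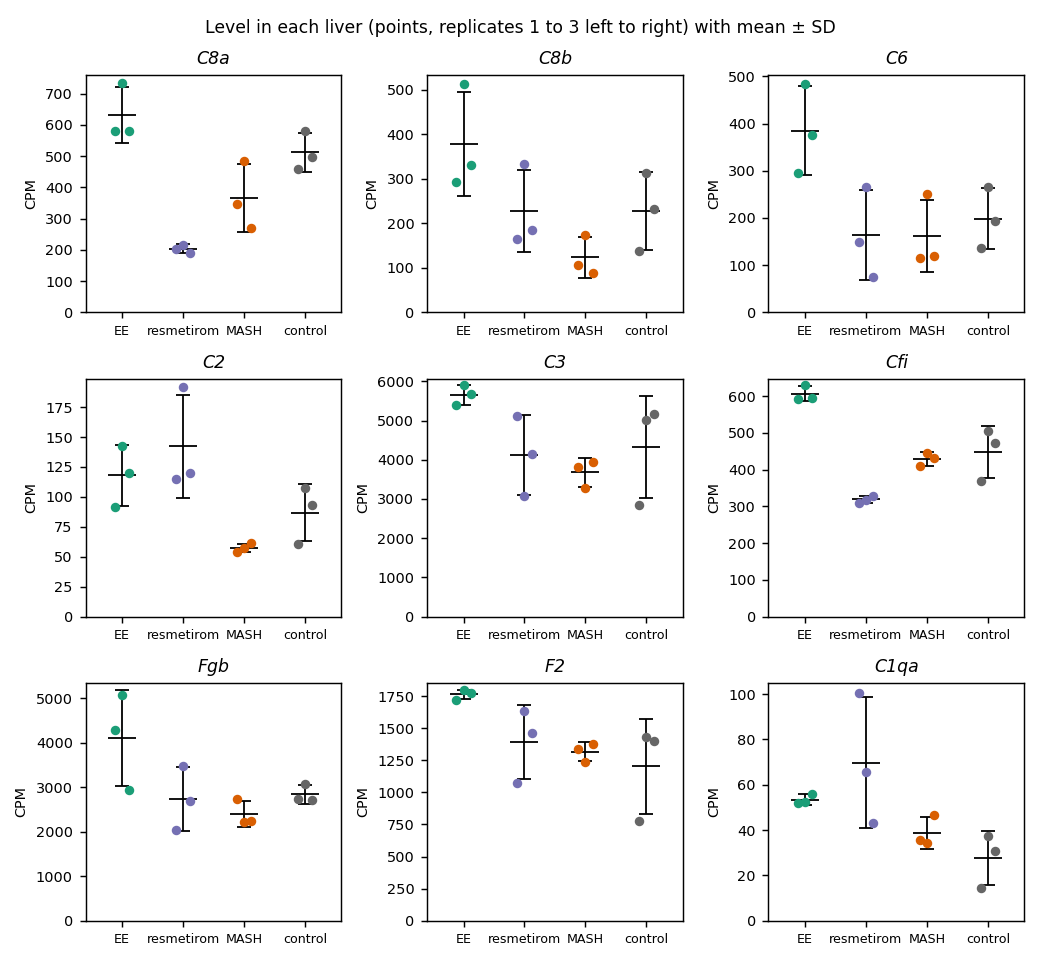
CPM in each liver (points, replicates 1 to 3 from left to right) with the mean (wide line) and SD (bars) of each group of 3, for C8a, C8b, C6, C2, C3, Cfi, Fgb, F2 and C1qa, each on its own axis from 0. All 3 EE points lie above the other 9 for C6, C3, Cfi and F2, and the 3 resmetirom points lie below the other 9 for C8a and Cfi.

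Hepatocyte markers lay on the same side of MASH as the members. Of the 5 marker transcripts in the table, 5 had a log2 fold change above 0 in EE against MASH, with a median of 0.38. Their summed level was 86732 to 91241 CPM in EE livers, 47972 to 78049 CPM in resmetirom livers, 67065 to 81179 CPM in MASH livers and 71724 to 155149 CPM in control livers, and none was at 0 in any library. Their part in the result was not tested. Markers of most other cell types had medians below 0 in EE against MASH: -1.03 for monocytes and macrophages (6 of 6 below 0), -0.76 for cholangiocytes (4 of 4), -0.52 for stellate cells (5 of 6), -0.16 for sinusoidal endothelium (5 of 5) and -0.26 for platelets (1 of 2). Some of these lists had low levels. Cholangiocyte markers summed to 5.18 to 6.96 CPM in EE livers and 4.53 to 11.6 CPM in MASH livers. Platelet markers summed to 2.08 to 2.34 CPM in EE livers and 2.03 to 2.93 CPM in MASH livers. Monocyte and macrophage markers summed to 38.9 to 55.6 and 61.6 to 85.8 CPM, most of it from Lyz2. Kupffer cell markers had a median of 0.23 (7 of 8 above 0) and erythroid markers of 0.21 (3 of 3 above 0).

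Resmetirom against MASH gave no common direction. Of 43 members, 28 were above 0 (54.2% of all genes were) and 15 below, with a median of 0.12, against 0.06 for all tested genes. edgeR's quasi-likelihood test called 0 members, where 0.665% of all genes were called. At an unadjusted p below 0.05, 6 members were higher and 3 lower, against 8.18% and 6.85% of all genes. DESeq2 called 4 members (C2, C8a, F12 and F9) and 4.70% of all genes, and limma voom 0 members and 0.651% of all genes. The sum of 9, where 15.0% of all genes passed in either direction, became 4 without MASH 1 (9.30% of all genes) and 4 without MASH 2 (8.71%), and without resmetirom 2 the median was -0.02. The resmetirom livers lay above all MASH livers for 4 members and below them for 3, against 11.6% and 12.3% of all genes.

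C2 had the smallest p, with a log2 fold change of 1.31 ± 0.27 in resmetirom against MASH (edgeR's quasi-likelihood test, adjusted p = 0.0567). Without control 1 or without resmetirom 1 the adjusted p of C2 was 0.0187 and 0.0463. C8a was at -0.85 ± 0.24 (edgeR's quasi-likelihood test, adjusted p = 0.136), whereas C8b was at 0.89 ± 0.39 (edgeR, adjusted p = 0.311). F12, which starts the contact pathway, stood at 493, 547 and 515 CPM in EE livers, 449.5, 680.4 and 551 CPM in resmetirom livers, 345, 351 and 399 CPM in MASH livers, and 357, 401 and 404 CPM in control livers. All 6 treated livers were above all MASH and control livers, and the log2 fold change of resmetirom against MASH was 0.62 ± 0.21 (edgeR, adjusted p = 0.199). Cfi and F9 had log2 fold changes of -0.43 ± 0.19 and -0.50 ± 0.18, and for both the resmetirom livers lay below the MASH livers.

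The 2 treatments were also compared directly, at their own doses of 100 mg/kg for EE and 3 mg/kg for resmetirom. Of 43 members, 33 were above 0 in EE against resmetirom (42.4% of all genes were), with a median of 0.34 against -0.08 for all tested genes. The EE livers lay above the resmetirom livers for 18 members, 41.9%, against 8.70% of all genes, and below them for 1, Mbl2, against 9.09%. edgeR's quasi-likelihood test called 1 member, where 0.307% of all genes were called. DESeq2 called 3 members and 2.93% of all genes, and limma voom 1 member and 0.207%. Without resmetirom 2 the members' median was 0.55. The member was C8a, at 631 ± 88.7 CPM in EE livers against 203 ± 14.0 CPM in resmetirom livers (log2 fold change 1.63 ± 0.25, edgeR adjusted p = 0.0241). Its resmetirom livers were below all other livers, while its EE livers overlapped the control livers. The adjusted p of C8a rose above 0.05 on leaving out control 3 (0.052), EE 1 (0.0886), EE 2 (0.122), EE 3 (0.0868) or resmetirom 2 (0.0517). The log2 fold change then lay between 1.53 and 1.71. The adjusted p was 0.119 in a fit of the EE and resmetirom livers alone. Cfi came next, at 0.93 ± 0.19 (edgeR, adjusted p = 0.0768), then F9 at 0.55 ± 0.18 (edgeR, adjusted p = 0.238). Without control 1 the adjusted p of Cfi was 0.0211.

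MASH against control asks what the diet did to these genes. Of 43 members, 13 were above 0 (48.4% of all genes were) and 30 below, with a median of -0.18 against -0.02 for all tested genes. edgeR's quasi-likelihood test called 0 members, where 0.0143% of all genes were called, and at an unadjusted p below 0.05, 0 members were higher and 4 lower, against 3.15% and 6.08% of all genes. DESeq2 and limma voom called 0 members each, where they called 0.622% and 0.00715% of all genes, with 7 and 4 members and 10.8% and 7.33% of all genes at an unadjusted p below 0.05. The 4 members of edgeR, where 9.23% of all genes passed in either direction, became 0 without MASH 1 (5.98% of all genes), MASH 3 (4.20%) or EE 3 (7.69%). They became 1 without EE 2 (7.73%), and 2 without control 2 (11.6%) or EE 1 (7.78%). The MASH livers lay below all control livers for 8 members and above them for 2, against 9.41% and 10.2% of all genes.

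The 4 were Kng1, C8b, C9 and C2. Kng1, the kininogen that releases bradykinin, stood at 2098, 2297 and 1962 CPM in EE livers, 976, 1709 and 1404 CPM in resmetirom livers, 1396, 1409 and 1411 CPM in MASH livers, and 3537, 1700.0 and 1841 CPM in control livers. The MASH livers were below every control liver, and control 1 was the highest of the 12. The log2 fold change of MASH against control was -0.75 ± 0.32 for Kng1 (edgeR, adjusted p = 0.533), a gene whose close copy Kng2 makes its count uncertain. C8b, C9 and C2 were at -0.89 ± 0.39, -0.81 ± 0.36 and -0.60 ± 0.27, and all 5 terminal components were below 0. Both treatments are set against these same MASH livers, so the comparisons share them.

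Against control, the EE livers had 38 members above 0 (45.6% of all genes were), with a median of 0.40 against -0.06 for all tested genes. edgeR's quasi-likelihood test called 0 members, where 0.100% of all genes were called, and at an unadjusted p below 0.05, 8 members were higher and 0 lower, against 5.13% higher and 16.1% in either direction of all genes. DESeq2 called 1 member (Cfi) and 4.21% of all genes, and limma voom 0 members and 0.0643% of all genes, with 13 members and 14.5% of all genes at an unadjusted p below 0.05. The count of 8 in edgeR became 14 without control 2 (18.1% of all genes in either direction), 13 without resmetirom 1 (18.7%), and 5 without control 3 (16.2%) or EE 2 (10.7%). The EE livers lay above all control livers for 17 members, against 13.7% of all genes, and below them for 1, Klkb1, against 13.5%. The smallest p values were those of Cfp at 0.76 ± 0.27, Serping1 at 0.77 ± 0.28 and C1qa at 0.95 ± 0.35. For each of these genes control 1 was the lowest of the 12 livers.

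Resmetirom against control gave 19 members above 0 (51.3% of all genes were) and 24 below, with a median of -0.03 against 0.02 for all tested genes. The resmetirom livers lay above all control livers for 7 members and below them for 3, against 9.93% and 10.9% of all genes. edgeR's quasi-likelihood test called 1 member, C8a, where 3.16% of all genes were called. DESeq2 called 4 members higher and 3 lower, against 4.88% and 6.17% of all genes, and limma voom 1 member and 2.38%. The median was 0.15 without resmetirom 1 and -0.16 without resmetirom 2. C8a fell to 203 ± 14.0 CPM in resmetirom livers, against 512 ± 62.4 CPM in control livers (log2 fold change -1.33 ± 0.24, edgeR adjusted p = 0.0188). The adjusted p was 0.06 without control 2 and 0.0535 without control 3, and 0.237 in a fit of the resmetirom and control livers alone. C1qa and Cfp came next, at 1.34 ± 0.35 (edgeR, adjusted p = 0.0614) and 1.01 ± 0.27 (edgeR, adjusted p = 0.0631). Without resmetirom 3 both passed, with adjusted p of 0.0432 and 0.0484, and 3 members and 2.67% of all genes were called. Without resmetirom 1 the log2 fold changes of C1qa and Cfp were 0.97 and 0.74 (edgeR, adjusted p = 0.126 and 0.13). Control 1 was the lowest of the 12 livers for both C1qa and Cfp, at 14.3 and 10.3 CPM. In the test for any difference among the 4 groups, edgeR called 1 member, C8a (adjusted p = 0.0286), where 1.60% of all genes were called.

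The C1q chains and properdin had their extremes in the libraries with the extreme Kupffer cell markers. C1qa, the A chain of C1q, stood at 52.1, 52.2 and 56.0 CPM in EE livers, 100.6, 65.7 and 43.02 CPM in resmetirom livers, 35.4, 34.2 and 46.8 CPM in MASH livers, and 14.3, 37.4 and 30.9 CPM in control livers. Resmetirom 1 was the highest and control 1 the lowest of the 12, and the EE livers varied little. Cfp stood at 26.1, 21.9 and 26.7 CPM in EE livers, 39.9, 27.7 and 21.4 CPM in resmetirom livers, 15.8, 15.6 and 22.3 CPM in MASH livers, and 10.3, 18.3 and 15.3 CPM in control livers. The same 2 libraries were its extremes. The 8 Kupffer cell markers summed to 286 to 384 CPM in EE livers, 210 to 599.6 CPM in resmetirom livers, 255 to 299 CPM in MASH livers and 46.9 to 263 CPM in control livers, with none at 0. Relative to the MASH mean, the median of these markers was -2.32 (log2) in control 1 and 0.97 in resmetirom 1, and that of the C1q chains was -2.24 and 1.30. Resmetirom 1 was also the highest of the 12 for summed monocyte and macrophage markers, at 152 CPM against 26.8 to 85.8 CPM in the other 11, and for stellate cell markers, at 456 CPM against 138 to 238 CPM. Its hepatocyte markers were the lowest of the 12. The part of these markers in the C1qa and Cfp values was not tested.

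**Figure D4:**
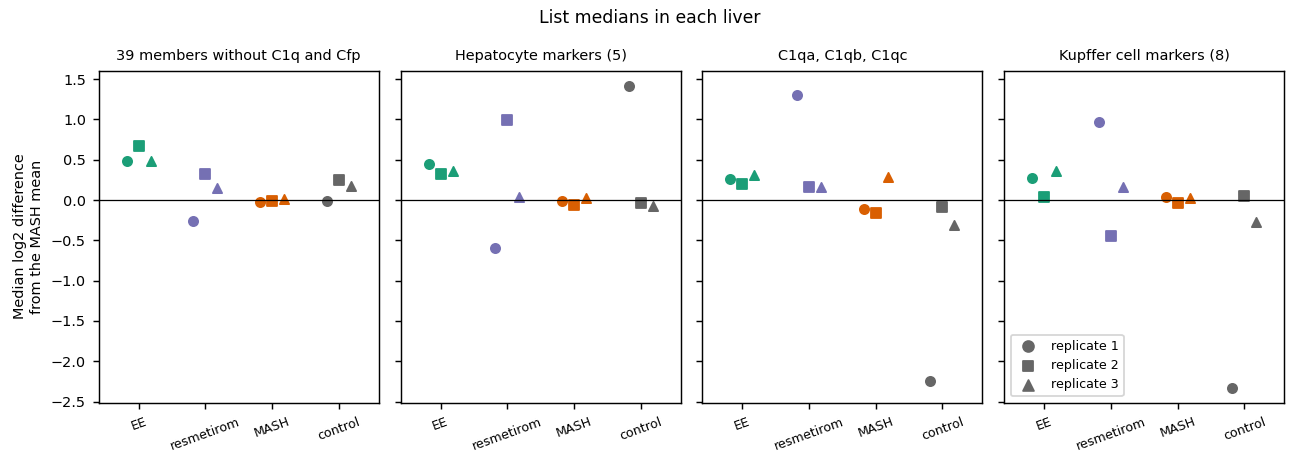
Median log2 difference from the MASH mean in each liver (circles, squares and triangles for replicates 1, 2 and 3) for the 39 members other than C1q and Cfp, the 5 hepatocyte markers, the 3 C1q chains and the 8 Kupffer cell markers. The 39 members are above 0 in all 3 EE livers, by 0.48 to 0.67, as are the hepatocyte markers, by 0.32 to 0.45, and control 1 lies far below the rest for C1q and the Kupffer cell markers.

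Control 1 also set several clotting genes apart within its group. Fga was at 498 CPM in control 1 and at 3496 and 2679 CPM in control 2 and 3, and F13b at 25 CPM against 159.9 and 162 CPM. Proc was at 853 CPM in control 1 and at 366 and 373 CPM in the others, and Klkb1 at 640.3 CPM against 295 and 298 CPM. The members thus went both ways in that liver: 14 of 43 were above and 29 below the mean of control 2 and 3.

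A further 43 complement and coagulation genes outside the members were examined, of which 38 were tested. In EE against MASH 16 of the 38 were above 0, where 47.6% of all genes were. The median of the 38 was -0.23, against -0.02 for all tested genes. Their levels differed widely, from genes such as Pzp, at 3450 ± 44 CPM in MASH livers, to genes such as C5ar1, at 1.31 ± 0.346 CPM. An unadjusted p below 0.05 in edgeR was reached by 5, where 2.34% of all genes were higher and 5.15% lower at that p. Those 5 were Hc (complement C5), Fcna (a ficolin) and Serpina10 (the protein Z inhibitor), at 0.55 ± 0.25, 0.49 ± 0.19 and 0.78 ± 0.24, and F3 (tissue factor) and Plat (tissue plasminogen activator), at -1.48 ± 0.52 and -1.95 ± 0.81. F3 and Plat had low levels. F3 averaged 1.11 ± 0.556 CPM in EE livers and 3.12 ± 1.45 CPM in MASH livers. Plat averaged 0.164 ± 0.144 CPM in EE livers and 0.649 ± 0.207 CPM in MASH livers. Hc and Serpina10 averaged 753 ± 24.0 and 251 ± 47.6 CPM in EE livers. Among the 38, edgeR called only Cfd (adipsin, the protease that starts the alternative pathway and is made mainly by fat cells), in resmetirom against MASH, resmetirom against control and EE against resmetirom. Its level was 20.5, 1.47 and 17.01 CPM in EE livers and 16.4, 40.7 and 20.1 CPM in MASH livers, and all 3 resmetirom livers had 0 counts. With a floor of 3 counts over the group, Cfd was at least 505-fold lower in resmetirom than in MASH livers (edgeR adjusted p = 0.0155) and at least 46.4-fold lower than in control livers (edgeR adjusted p = 0.0381).

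Of 10 regulators known to act on liver secretory genes, 7 were above 0 in EE against MASH (47.6% of all genes were), with a median of 0.65. Of these, 5 had an unadjusted p below 0.05, where 2.34% of all genes were higher at that p, with adjusted p of 0.604 to 0.626 in edgeR. Il1r1, the interleukin-1 receptor, was at 1.39 ± 0.48, Il6ra, the interleukin-6 receptor, at 1.16 ± 0.43, and Cebpb, a factor of the acute phase response, at 1.16 ± 0.45. Stat3, which carries the interleukin-6 signal, was at 0.90 ± 0.33 and Hnf4a, a master factor of hepatocytes, at 0.59 ± 0.21. The 7 acute phase transcripts went both ways, with 4 above 0 and a median of 0.27. Hamp (hepcidin, the hormone that limits iron uptake) was at 1.83 ± 0.79, Orm1 at 0.54 ± 0.45, Hp (haptoglobin) at 0.47 ± 0.39 and Crp at 0.27 ± 0.35. Saa1 and Saa2, major acute phase proteins of the mouse, were at -0.24 ± 0.70 and -1.12 ± 0.72, and Lcn2 (lipocalin 2) at -1.61 ± 0.83. The EE livers lay above the MASH livers for Hamp, Orm1 and Hp and below them for Lcn2.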

How the data were processed

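Per the labels' protocols, total RNA from liver was extracted with TRIzol and made into stranded poly(A) libraries, which were read as 150-base pairs. A tool, fastp with no version, and a build, GRCm39, are named in the submitters' processing notes, without their roles. Not given in the sources used here are the aligner, counter, annotation release and strand. The authors deposited expected counts per Ensembl gene, not scaled to a common total. Between 91.5% and 93.3% of a library's values are whole, and they were rounded to whole numbers. Symbols and transcript lengths came from an annotation of an older build (GRCm38), which named 22603 of 28036 identifiers. Promoters came from RefSeq (GRCm38.p6).

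The counts went into edgeR 4.0.16 under R 4.3.3, with low genes removed by filterByExpr and trimmed-mean (TMM) scaling. A robust quasi-likelihood model held the 12 libraries in 1 fit, with 8 residual degrees of freedom. An SE is the log2 fold change over the square root of F. Before scaling, 1 CPM equals 17.3 to 21.8 counts. The members, lists and naming rule were chosen with earlier results of these data known. Values in every library are given for members that passed the test, for the 3 smallest p of MASH against control, resmetirom or EE against MASH and resmetirom against control, and for C3, F2 and Fgb. C6 and Cfi were added after their values were seen. The labels do not say that a replicate number marks a shared cage or day. Nor do they say that the 3 livers of a group are from separate cages. The p-values therefore set each difference against the spread between these livers only. In the fit of all 12 libraries that spread was estimated over all 4 groups, also for EE against MASH.

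Same-numbered libraries were checked for deviating together from their group means. For EE and MASH the correlations across genes were 0.279, 0.219 and 0.213. They were also positive in every pair of EE and resmetirom (0.0362, 0.0834 and 0.142). The same held for resmetirom and MASH (0.150, 0.203 and 0.0029). Over all 18 pairs the range was -0.388 to 0.305. The labels do not state a pairing of EE and MASH livers. Libraries of different numbers were not compared in this way, so the check cannot show a pairing. Alternatives were other scalings, DESeq2 1.42.0, limma 3.58.1 voom, other filters, a replicate block, a fit of only the compared groups, removal of mitochondrial genes and leaving libraries out. Further alternatives with a block, length and GC offsets or left-out resmetirom libraries were chosen after seeing the data. The fits were tested on simulated data with the spread of all 12 livers. In every fit of those data the median size of the larger changes was near that set, and most changed genes had the right sign. The simulated libraries held no replicate effect, so they cannot show how a block performs on these livers. A preset minimum share of the larger changes was not reached by the blocked fit of EE and MASH alone, which has 2 residual degrees of freedom, and after that failure it was required only of fits of all 12 libraries. The fits of EE and MASH alone called fewer of the changed genes than those of all 12 libraries, the blocked one the fewest, and DESeq2 called the most unchanged genes.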

Additional observations from a re-analysis of the deposited data

How the results depend on the processing

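Counts of called members are given with the share of all tested genes called in the same fit. In EE against MASH (0 members, 0.00715% of all genes), DESeq2 called 2 (0.200%), the fit of only the compared groups 22 (5.63%), leaving out control 1 and resmetirom 2 called 2 (0.472%), the replicate block in the 2 groups alone 34 (20.7%), length and GC offsets in only the compared groups 22 (2.31%), and offsets with the replicate block 35 (13.1%), all of them higher. In resmetirom against MASH (0, 0.665%), upper quartile scaling (0.672%), no filter (0.869%) and the replicate block (0.801%) gave 1 each, DESeq2 4 (4.70%) and control 1 and resmetirom 2 left out 2 (3.29%), and leaving out each library gave 0 to 1 (0.00698% to 3.01%). In EE against control (0, 0.100%), DESeq2 called 1 (4.21%). In resmetirom against control (1, 3.16%), 0 members were called with no scaling factors (0.265%), only the compared groups (0.0378%), the block (0%) or the offsets (0.0605%) in only those, and without resmetirom 1 and 2 (0.173%). DESeq2 gave 7 (4.88% higher and 6.17% lower), no filter 3 (1.92%), control 1 and resmetirom 2 left out 3 (7.46%), and each library left out 0 to 3 (0.881% to 4.78%). In EE against resmetirom (1, 0.307%), 0 were called with no scaling factors (0.0858%), only the compared groups (0.0232%), the block (0.0773%) or the offsets (0.00773%) in only those, and without resmetirom 1 and 2 (0.0534%). DESeq2 gave 3 (2.93%), control 1 and resmetirom 2 left out 6 (2.94%), and each library left out 0 to 2 (0.0484% to 0.965%). In the test of any difference (1, 1.60%), no scaling factors (0.343%) and leaving out resmetirom 1 and 2 (0.173%) gave 0, DESeq2 11 (11.8%), no filter 4 (2.40%), the replicate block 2 (0.872%), control 1 and resmetirom 2 left out 8 (7.78%), and each library left out 0 to 3 (0.193% to 2.85%). Without scaling factors the median over all tested genes moved to -0.32 in EE against MASH, 0.37 in MASH against control and -0.13 in resmetirom against MASH. The members' medians were then 0.27 (34 of 43 above 0), 0.24 and -0.14, so the members' direction relative to 0 differed from that under the main scaling in the last 2. In EE against resmetirom leaving out each library put the members' median between 0.22 and 0.55, with the higher value without resmetirom 2. In the other alternatives medians moved by less than 0.20, the SD between livers, which was enough to put the median of resmetirom against MASH at -0.02 without resmetirom 2, and that of resmetirom against control between -0.22 and 0.15, on both sides of 0. The medians of EE against MASH, control and resmetirom were above 0 under every alternative run. The cause of these differences was not tested. Every member had at least 64 counts in every library, and the calls in the fit of all 12 libraries, each of C8a, were at log2 fold changes of -1.33 and 1.63.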
